A study of Mus musculus with 72 samples.

Results

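Control olfactory epithelium from mice given doxycycline (DOX) was compared between postnatal day 10 (P10) and postnatal day 3 (P3) by total RNA sequencing. The members were the libraries whose labels give the control genotype with DOX from the day of birth and one of these ages: 3 libraries at P3 and 3 at P10, or 6 of the 72 libraries of the series. The series holds 25 groups of control and Fzd1-mutant mice at several postnatal ages, with and without DOX. All mice of both groups carried Omp-IRES-tTA, in which the DOX-sensitive transactivator tTA is made from the Omp gene of mature olfactory sensory neurons, and no tetO transgene is given for them. DOX ran from P0 to P3 in the younger group and from P0 to P10 in the older group, so age and days on DOX go together. The labels do not give the number of copies of the Omp allele, and they do not say that libraries of a group came from separate animals. The p-values below therefore rest on a spread between libraries, which may be technical. For the edgeR test that spread was estimated over all 72 libraries of the 25 groups, not over these 6 alone.

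The olfactory epithelium renews its sensory neurons throughout life from basal stem cells, and each mature neuron expresses a single odorant receptor gene. Receptor signalling runs through the G protein Golf, adenylyl cyclase, the cyclic nucleotide-gated channel and a calcium-activated chloride channel in the cilia. Sustentacular cells and the nasal glands around the neurons secrete mucus rich in odorant-binding proteins and mucins, and hold detoxifying enzymes. In the first postnatal days the epithelium grows, receptor neurons mature and the nasal skeleton ossifies.

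The P3 libraries held 3134283 to 4383674 gene counts and the P10 libraries 2953206 to 3308405. A family of 13 predicted genes of the Gm10800 type, which resemble satellite repeats, took 14%, 10.8% and 6.90% of the counts at P3 and 9.52%, 12.4% and 7.53% at P10. The means of 10.5% ± 3.54 and 9.83% ± 2.46 (SD, n = 3 each) differed by less than that spread (exact permutation test, two-sided p = 0.8). On the TPM scale, which divides each gene's reads by transcript length and sets every library to the same total, 4 small RNAs (Rn7s1, Rn7s2, Rn7sk and Rpph1) held 28.6%, 42.6% and 38.8% at P3 and 51.9%, 51.6% and 52.3% at P10, so every other transcript had less room at P10 on that scale. The sample names of the P3 libraries carry the ID series 772 and those of the P10 libraries 770. Age, days on DOX and this ID series cannot be told apart. The P3 libraries stood apart from the other control ages with DOX in several genes. Among them were Omp, the predicted genes Gm15772 and Gm44964 and the ribosomal protein gene Rpl26, whose values are given with Omp.

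Of 22144 genes tested with edgeR's quasi-likelihood test over all 72 libraries, 3771 (17.0%) passed a Benjamini-Hochberg adjusted p of 0.05, 1923 (8.68%) higher and 1848 (8.35%) lower at P10. These shares are the background for the counts of called genes in each list below. Levels are given in CPM, a gene's counts scaled by library size. The library size is the library's total of gene counts after adjustment by edgeR's TMM normalisation factor. This adjustment lowered the CPM of the P3 libraries more than those of the P10 libraries. Fold changes are given as log2 of P10 over P3 with their standard error (SE), and adjusted p always refers to that edgeR test. The CPM of the groups did not overlap for 4254 genes (19.2%) higher and 4287 genes (19.4%) lower at P10. The median log2 fold change over all genes was -0.04. On the log2(TPM + 1) scale it was -0.36 and only 2.88% of 5554 calls by limma were higher at P10, against 51.0% in the edgeR test. With the Gm10800-type family left out 40.1% of 3382 calls were higher. Rises are therefore changes relative to the median gene on the count scale. In a bulk sample fewer cells of a type and less RNA per cell cannot be told apart.

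**Figure D1:**
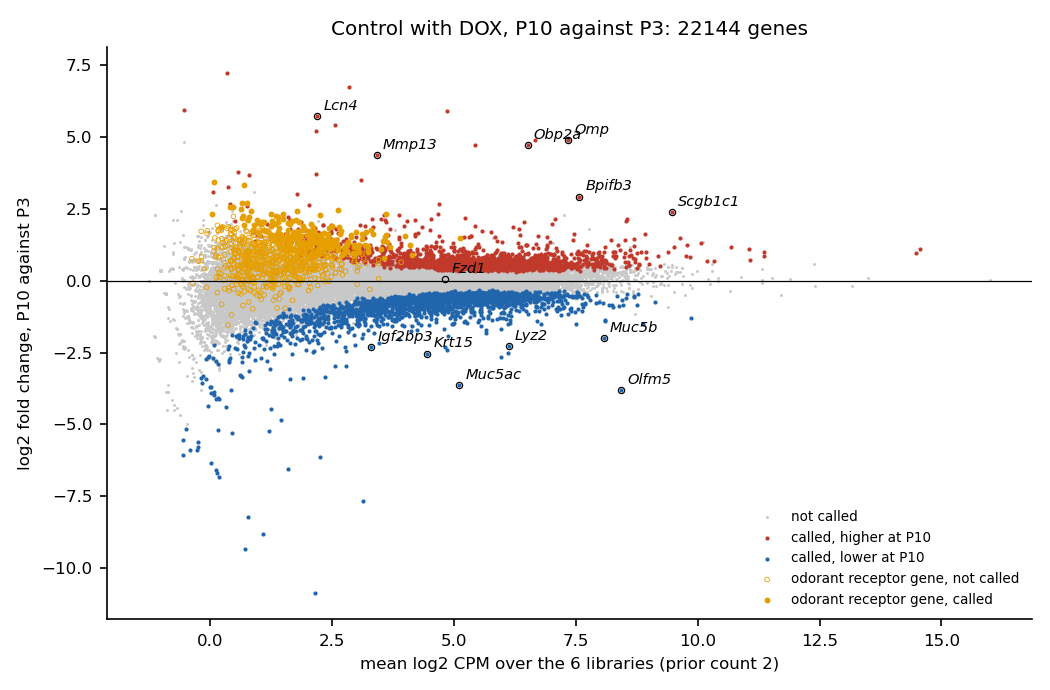
Log2 fold change of P10 over P3 against mean log2 CPM over the 6 libraries for the 22144 genes tested, 1 point per gene. Filled points outside the grey cloud are genes called at an adjusted p of 0.05, and odorant receptor genes, shown in their own colour, lie mostly above 0.

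Secreted odorant-binding proteins and lipocalins, small carriers of hydrophobic ligands in nasal mucus, showed the largest rises. Of 16 listed genes 10 were tested and 6 symbols had no match. Of these 10, 6 rose and 1 fell, with a median log2 fold change of 3.89. Without P10 replicate 3 the median was 2.59 and 5 rose. The upstream sequences of the members that rose are shown because several lie close together on chromosomes 2 and X and moved together. RefSeq gives 9 of the 10 tested members a promoter on GRCm38.p6, and 8 of them left a window of 100 bases upstream of both RefSeq's and GENCODE's start. The motif TATAAA, searched on both strands, is in 5 of these 8 windows and is written in capitals. Of 32851 RefSeq promoters 12.4% hold it in their 250 upstream bases, a longer stretch.

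Obp1a (chrX:78091375-78091474, minus strand): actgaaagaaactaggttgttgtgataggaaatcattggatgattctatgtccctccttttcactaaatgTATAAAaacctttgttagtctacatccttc
Obp1b (chrX:78186677-78186776, plus strand): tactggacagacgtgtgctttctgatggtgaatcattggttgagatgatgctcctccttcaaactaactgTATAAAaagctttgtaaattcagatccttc
Obp2a (chr2:25699943-25700042, plus strand): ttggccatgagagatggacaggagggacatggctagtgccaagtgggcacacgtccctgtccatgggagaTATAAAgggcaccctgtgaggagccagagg
Obp2b (chr2:25736907-25737006, plus strand): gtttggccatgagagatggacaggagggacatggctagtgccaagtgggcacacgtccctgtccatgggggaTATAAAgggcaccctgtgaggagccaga
Lcn3 (chr2:25765433-25765532, plus strand): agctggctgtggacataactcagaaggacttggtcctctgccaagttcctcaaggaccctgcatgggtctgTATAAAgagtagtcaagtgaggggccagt
Lcn4 (chr2:26671283-26671382, minus strand): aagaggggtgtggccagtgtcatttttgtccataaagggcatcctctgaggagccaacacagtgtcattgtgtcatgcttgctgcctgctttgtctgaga

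Lined up on the motif, the Obp2a and Obp2b windows were identical at 97 of 98 positions and those of Obp1a and Obp1b at 65 of 100, while Obp2b and Lcn3 shared 39 of 99. The Lcn4 window holds no such match, nor do those of Lcn11 and Mup4. A match describes the letters only, and factor binding was not measured.

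Obp2b (chr2:25737009-25740097, mm10) was at 11.4, 19.3 and 31.6 CPM in the P3 libraries and at 352, 362 and 1182 CPM in the P10 libraries. The groups did not overlap, and P10 replicate 3 was far above the other two. The log2 fold change was 4.91 (SE 0.67, edgeR adjusted p = 6.84e-07). Its near copy Obp2a (chr2:25700043-25703326) was at 10.8, 13.4 and 37.8 CPM at P3 and 303, 311 and 1033 CPM at P10, a log2 fold change of 4.71 (SE 0.86, edgeR adjusted p = 8.9e-05). Reads shared by such near-identical genes may be split between them in the counting, so each single value is uncertain. Obp1a rose by 4.71 (SE 0.97) and Obp1b by 5.40 (SE 1.16) on the log2 scale, and Obp1a stood at 88.3, 112 and 697 CPM at P10. Lcn4 had the highest log2 fold change of the named genes, 5.72 (SE 0.96, edgeR adjusted p = 2.87e-05), from 1.35, 0.210 and 0.198 CPM to 12.3, 18.5 and 54.7 CPM. Lcn3, described as a lipocalin of nasal and vomeronasal glands, rose by 2.16 (SE 0.64). P10 replicate 3 was the highest library for all 6 of these genes. Lcn11 (0.20), Mup4 (3.08) and Mup5 (0.20) did not pass the test. The member that fell was Lcn2, which binds bacterial siderophores in innate defence: 185, 225 and 97.5 CPM at P3 and 29.0, 26.8 and 32.8 CPM at P10, a log2 fold change of -2.51 (SE 0.61, edgeR adjusted p = 0.00247).

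**Figure D2:**
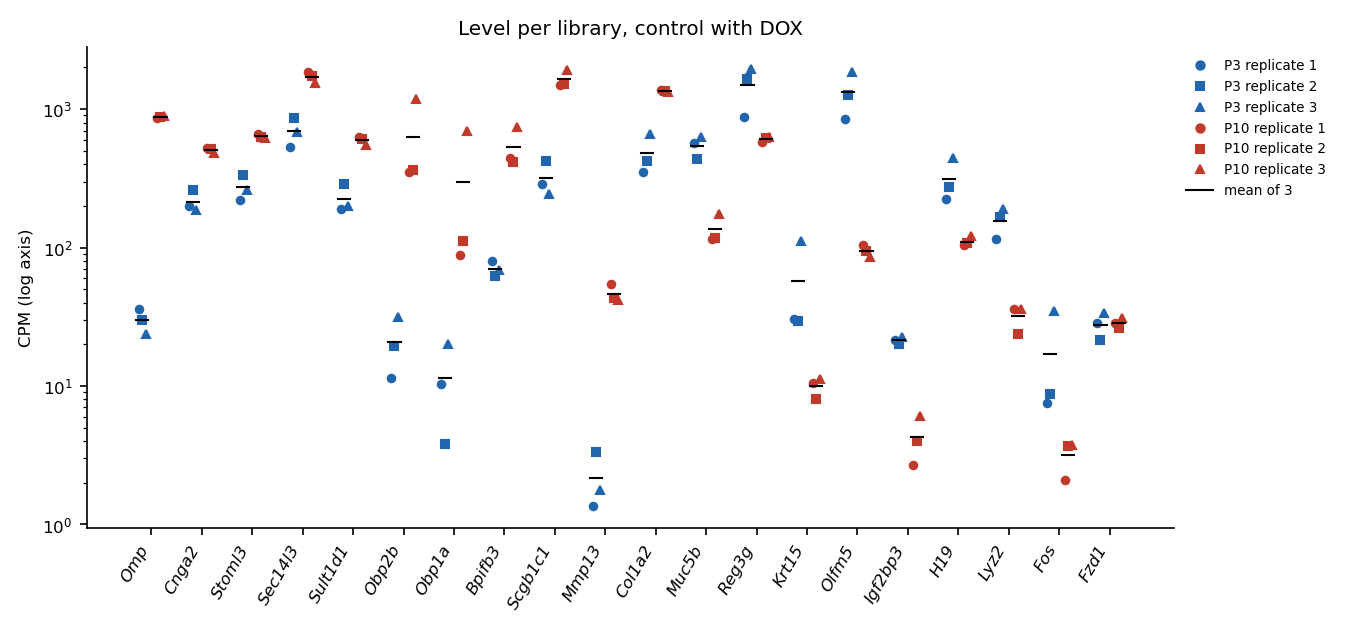
CPM of named genes on a log axis, 1 point per library, with P3 and P10 libraries in different colours, a marker shape for each replicate number and a bar at the mean of 3. P10 replicate 3 is the highest P10 library for the odorant-binding proteins, while Omp lies between 860 and 885 CPM in all P10 libraries.

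The other secreted proteins moved in both directions. BPIF proteins, lipid-binding proteins of airway and nasal secretions, rose in 3 of 10 tested members (4 others were below the filter) and none fell. Bpifb3 rose from 79.5, 62.0 and 69.2 CPM to 441, 414 and 742 CPM, a log2 fold change of 2.92 (SE 0.31, edgeR adjusted p = 1.56e-09). Bpifb6 (1.62) and Bpifb4 (0.99) also rose. Bpifb9b, whose levels ran from 288 to 1694 CPM at P3 and from 926 to 4661 CPM at P10, overlapped between the groups and did not pass the test.

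Among 11 tested nasal gland genes 3 rose and 4 fell, with a median of -0.59. Scgb1c1, a secretoglobin of Bowman's glands, was at 288, 420 and 242 CPM at P3 and at 1498, 1514 and 1923 CPM at P10. The fitted fold change was 5.19 (log2 fold change 2.38, SE 0.27, edgeR adjusted p = 5.98e-09), with no overlap. Azgp1 (1.63) and Dmbt1 (2.06), the latter a scavenger receptor-like mucosal protein, rose too. The Dmbt1 call rested on P10 replicate 3, without which the log2 fold change was 1.20 (edgeR adjusted p = 0.161). Of the gel-forming mucins, Muc5ac was at 53.0, 139 and 204 CPM at P3 and 7.19, 8.39 and 16.1 CPM at P10. Muc5b, its neighbour on chromosome 7, was at 567, 440 and 631 CPM at P3 and at 115, 118 and 175 CPM at P10. Both mucins were lower in every P10 library than in any P3 library, with log2 fold changes of -3.63 (SE 0.81) and -2.00 (SE 0.33, edgeR adjusted p = 2.31e-05). Car6, a secreted carbonic anhydrase, fell by 2.32 and the trefoil peptide Tff2 fell by 1.67. Without P3 replicate 3 only 2 of the gland genes fell.

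Of 16 tested mucosal defence genes, which act against microbes or mark neutrophils, 1 (6.25%) rose and 4 (25%) fell, against 8.68% and 8.35% of all genes. Only 2 fell when P10 replicate 1, P10 replicate 2 or P3 replicate 3 was left out. The antibacterial lectin Reg3g was at 883, 1664 and 1953 CPM at P3 and at 580, 615 and 632 CPM at P10 (log2 fold change -1.30, SE 0.30). The calgranulins S100a8 (-1.21) and S100a9 (-1.27) and the lysozyme Lyz1 (-4.10) were the others that fell, although Lyz1 reached at most 3.24 CPM. Chil6, a chitinase-like protein, was the member that rose, from 162, 302 and 104 CPM to 733, 751 and 921 CPM (log2 fold change 2.08). Outside the list, Pglyrp1, a peptidoglycan recognition protein of neutrophil granules, fell from 127, 170 and 184 CPM to 23.1, 17.1 and 36.3 CPM, and the neutrophil surface protein Cd177 fell by 2.42. The cytokine Il1b and its receptor antagonist Il1rn fell by 2.49 and 2.45. Il1b lost the call without P3 replicate 3 (edgeR adjusted p = 0.125) and Il1rn without P10 replicate 2 (edgeR adjusted p = 0.0625).

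Few markers of macrophages and antigen presentation were called. Of 16 tested genes 1 (6.25%) rose and 2 (12.5%) fell, near the 8.68% and 8.35% of all genes, with a median of -0.08. H2-Aa, a class II antigen-presenting chain, was at 4.33, 4.41 and 4.75 CPM at P3 and 16.8, 19.5 and 24.5 CPM at P10 (log2 fold change 2.16, edgeR adjusted p = 2.62e-06). The lysozyme Lyz2 of myeloid cells was at 115, 165 and 188 CPM at P3 and at 36.2, 23.8 and 36.0 CPM at P10 (log2 fold change -2.28). The lysosomal marker Cd68 fell by 0.74. Only 1 of the markers fell without P10 replicate 1, P3 replicate 1 or P3 replicate 2. Summed over the list, with the Lyz2 values above included, the macrophage markers ran from 278 to 357 CPM at P3 and from 200 to 257 CPM at P10. Their part in the falls of the defence genes was not tested.

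Mature sensory neuron genes rose together. Of 18 markers, all tested, 13 rose and none fell, with a median log2 fold change of 0.84. The summed level of the list was 2457 to 3098 CPM at P3 and 5580 to 5789 CPM at P10. With Omp left out it was 2433 to 3068 CPM at P3 and 4695 to 4929 CPM at P10. Omp, the olfactory marker protein that buffers cyclic AMP signalling in these neurons, had by far the largest change. Cnga2, the main subunit of the transduction channel, was at 198, 260 and 186 CPM at P3 and at 525, 513 and 483 CPM at P10 (log2 fold change 1.24, SE 0.24, edgeR adjusted p = 0.000269). Of its partners in transduction, Cnga4 (0.90), the Golf alpha subunit Gnal (0.86), Gng13 (1.16), the chloride channel Ano2 (0.82), the phosphodiesterase Pde1c (0.46) and the Golf exchange factor Ric8b (1.0) rose. So did the receptor transport proteins Rtp1 (0.86) and Rtp2 (0.94), the cilium protein Stoml3 (1.22), Umodl1 (0.76) and the glutamate transporter Slc17a6 (0.70). Without P3 replicate 3, 8 of the 18 rose. On the log2(TPM + 1) scale the median was 0.16 and 1 gene, Omp, was called.

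Omp itself (chr7:98143359-98145502) was at 36.0, 30.0 and 23.7 CPM at P3 and at 860, 883 and 885 CPM at P10. All P10 libraries were far above all P3 libraries, and the fitted fold change was 29.4 (log2 fold change 4.88, SE 0.40, edgeR adjusted p = 2.32e-13). The level at P3 was out of order with the other ages of control mice on DOX: Omp was at 217 to 227 CPM at P1, 410 to 669 CPM at P7 and 1066 to 1436 CPM at P14. It was at 27.6 and 27.8 CPM at P3 and 46.6 to 60.8 CPM at P10 in control mice without DOX. As a percentage of the summed level of the other mature markers, Omp was 0.975 to 1.47 at P3 with DOX, against 12.5 to 12.8 at P1, 14.9 to 16.8 at P7, 17.5 to 18.9 at P10 and 19.5 to 21.4 at P14. Without DOX that percentage was 0.952 to 1.09 at P3 and 1.0 to 1.34 at P10. In the 15 libraries of Fzd1lacZ mice it was 22.4 to 41.8.

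The P3 libraries with DOX thus lay in the range of the P3 libraries without DOX or next to it in Omp, and far below the other ages with DOX. Of the tested genes within 10 Mb of Omp, leaving out Omp and receptor genes, 30 of 203 (14.8%) were called, near the background of 17.0%. With DOX, Gm15772 was at 63.3, 188 and 72.4 CPM at P3 and below 1 CPM at P10. Without DOX it was at 1.39 and 106 CPM at P3 and at 85.5 to 109 CPM at P10. Gm44964 was at 73.5, 47.1 and 28.1 CPM at P3 and at 0 CPM in each P10 library with DOX. Without DOX it was at 34.0 and 30.8 CPM at P3 and at 86.7 to 101 CPM at P10. The ribosomal protein gene Rpl26 was at 88.7, 18.1 and 116 CPM at P3 and between 273 and 312 CPM at P10 with DOX. Without DOX it was at 273 and 138 CPM at P3 and at 117 to 160 CPM at P10. Gm15772, Gm44964 and Rpl26 were chosen after their values were seen. Whether a difference in Omp alleles or in strain background has a part in these values was not tested, since the labels give neither.

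Odorant receptor genes, the largest gene family of the epithelium, shifted upward as a group. Of 1107 receptor genes 922 passed the filter, 214 (23.2%) rose and none fell, against 8.68% and 8.35% of all genes. The median log2 fold change was 0.88, 848 of the 922 were above 0, and the median level went from 1.77 CPM at P3 to 3.24 CPM at P10. The receptors' share of gene counts was 0.278%, 0.238% and 0.205% at P3 and 0.427%, 0.409% and 0.377% at P10. The groups did not overlap, and the difference of 0.164 percentage points had the smallest p that 3 against 3 allows (exact permutation test, two-sided p = 0.1). As a share of TPM the groups overlapped, at 0.0590% to 0.0794% at P3 and 0.0778% to 0.0872% at P10, and the difference was 0.0166 percentage points (exact permutation test, two-sided p = 0.2). Calls followed level: with receptors in 3 equal tiers by level, 7.47% of the low, 21.2% of the middle and 41.0% of the high tier were called, while the medians of the tiers were 0.82, 0.84 and 0.92. The count of called receptors fell to 95 without P3 replicate 3, to 133 without P10 replicate 2 and to 137 without P10 replicate 1. On the log2(TPM + 1) scale 73 were higher and 10 lower, with a median of 0.10.

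Olfr536 (chr7:140500849-140507396) was at 20.01, 21.4 and 20.6 CPM at P3 and 62.6, 62.7 and 49.3 CPM at P10 (log2 fold change 1.49, SE 0.26, edgeR adjusted p = 4.8e-05). Olfr166 on chromosome 16 went from 6.76, 4.62 and 4.55 CPM to 27.6, 29.5 and 21.3 CPM (log2 fold change 2.31), and Olfr220 on chromosome 1 rose by 2.48. The rise was spread over the genome: the median per chromosome ran from 0.40 to 1.36. Of 16 trace amine receptors, which detect volatile amines, 7 were tested; none passed, but all 7 had a positive log2 fold change, with a median of 1.08 that became -0.04 on the log2(TPM + 1) scale. Reads of closely related receptors can be shared, so single receptor values are uncertain.

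**Figure D3:**
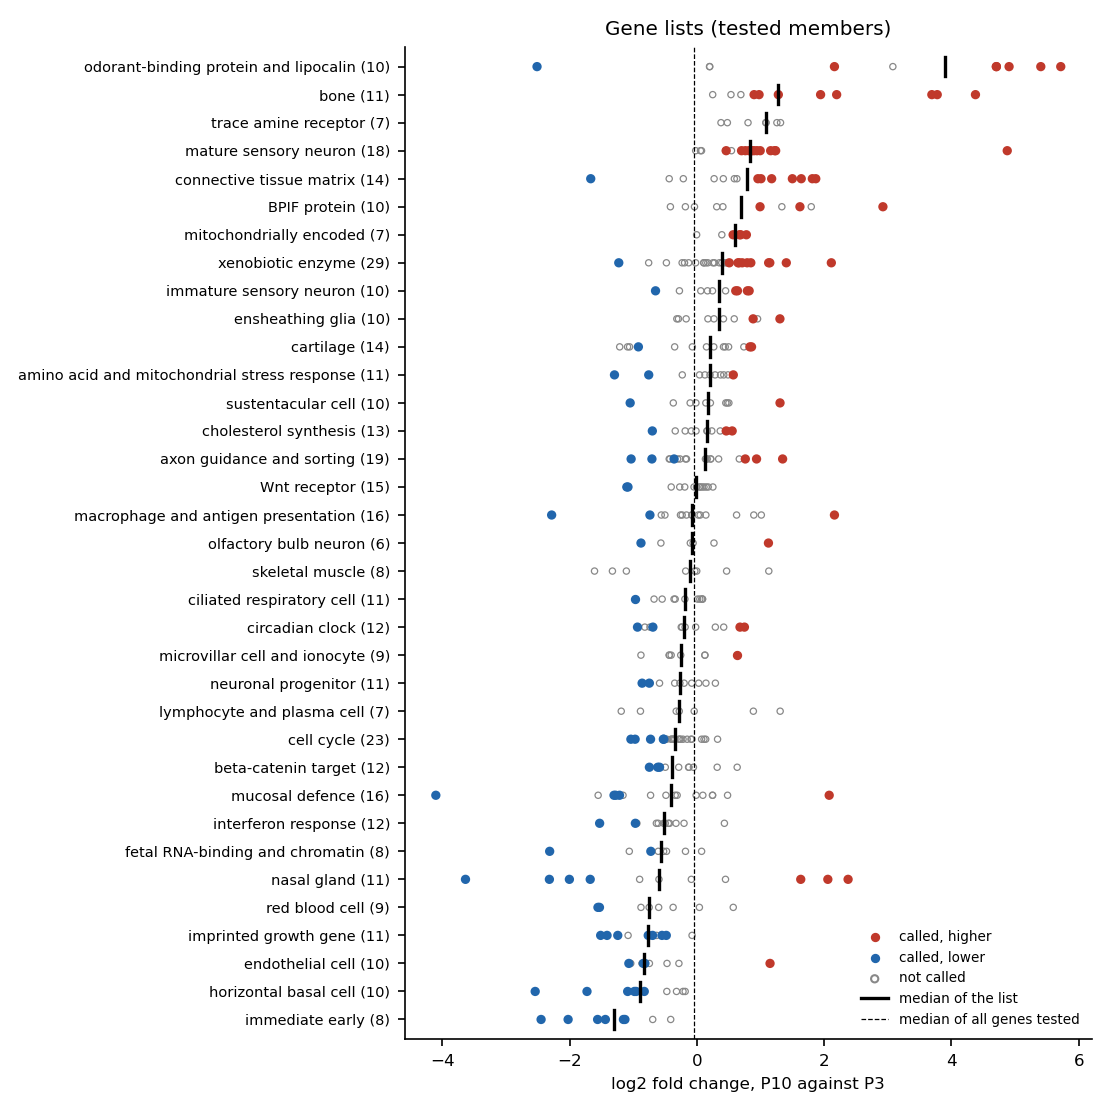
Log2 fold change of P10 over P3 for the tested members of each gene list, 1 point per gene, with a bar at the list's median and a dashed line at the median of all genes tested (-0.04). Odorant-binding proteins (median 3.89), bone (1.28) and mature neurons (0.84) lie to the right, and immediate early (-1.29), basal cell (-0.89) and imprinted genes (-0.76) to the left.

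Earlier stages of the neuronal lineage changed less. Of 10 immature neuron genes 4 rose (Gap43 0.79, Gng8 0.64, Stmn2 0.61 and Stmn4 0.82) and 1 fell (Dpysl5 -0.65). With any single P10 library, P3 replicate 1 or P3 replicate 3 left out none of them fell. The list's median of 0.35 became -0.26 on the log2(TPM + 1) scale, and only 1 gene rose when P10 replicate 2 or P3 replicate 3 was left out, and 2 without P10 replicate 3 or P3 replicate 1. Of 11 progenitor genes none rose and 2 fell. Kit, the receptor tyrosine kinase of globose basal cells and young neurons, went from 80.8, 63.2 and 62.9 CPM to 40.1, 40.9 and 32.8 CPM (log2 fold change -0.86, SE 0.16, edgeR adjusted p = 0.000132), and Eya2 fell by 0.75. The proneural factors Neurog1 (-0.74) and Neurod1 (-0.20) did not pass the test.

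Of 23 cell cycle genes none rose and 5 fell: Plk1 (-1.04), Aurkb (-0.97), E2f1 (-0.73), Mcm5 (-0.53) and Cdc20 (-0.52). Mki67, the proliferation marker, was at 231, 203 and 261 CPM at P3 and 181, 180 and 175 CPM at P10. These levels did not overlap but did not pass the test (log2 fold change -0.37), and Top2a was at 0.11. Between 2 and 8 of the list fell when single libraries were left out.

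Horizontal basal cell genes, marking the quiescent stem cells on the basal lamina, were lower at P10. Of 10 tested 6 fell and none rose, with a median of -0.89. P3 replicate 3 was the highest library for all 6: Krt15 was at 30.5, 29.6 and 112 CPM at P3 and at 10.5, 8.05 and 11.2 CPM at P10, and Krt5 at 40.8, 50.8 and 83.3 CPM against 31.1, 28.9 and 30.8 CPM. Without that library 2 of the 10 fell, and Krt15 (edgeR adjusted p = 0.0512), Krt5 (edgeR adjusted p = 0.116), Krt14 and Col17a1 lost their calls. Icam1 fell by 1.73 and the hemidesmosome integrin Itgb4 fell by 1.09. Outside the list, Krt4, a keratin of stratified mucosa, went from 8.65, 9.03 and 29.3 CPM to 1.20, 1.34 and 2.02 CPM (log2 fold change -3.36, SE 0.73). Csn3, the casein kappa gene, had the same pattern with 42.3 CPM in P3 replicate 3 and 8.92 and 10.3 CPM in the other two, and lost its call without that library (edgeR adjusted p = 0.136). P3 replicate 3 was also the highest in 6 immediate early genes, which fell in 6 of 8 tested: Fos was at 7.57, 8.82 and 34.6 CPM at P3 and 2.10, 3.69 and 3.75 CPM at P10. Without it none of the 8 fell, and with any P10 library left out 2 or 3 did. The same library had the highest level of the haemoglobin gene Hba-a1, 77.7 CPM against 16.2 and 30.7 CPM. What this library's make-up has to do with the basal cell values was not tested.

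Sustentacular cell markers changed in few members: of 10 tested 1 (10%) rose and 1 (10%) fell, near the 8.68% and 8.35% of all genes. Sec14l3, a lipid transfer protein, rose from 529, 859 and 683 CPM to 1849, 1725 and 1553 CPM (log2 fold change 1.31, edgeR adjusted p = 0.000199). The mucin Muc2 fell by 1.05, a call absent without P10 replicate 1 or P3 replicate 1. Detoxifying enzymes, which these cells and the glands hold in large amounts, rose in 10 of 29 tested members and fell in 1. Sult1d1, a sulfotransferase, was at 190, 286 and 201 CPM at P3 and at 630, 609 and 554 CPM at P10 (log2 fold change 1.41, SE 0.22, edgeR adjusted p = 8.73e-06). The cytochromes P450 Cyp2e1 (2.11), Cyp4b1 (1.13), Cyp2a5 (0.85), Cyp2g1 (0.71) and Cyp2j6 (0.65), the aldehyde dehydrogenase Aldh1a7 (1.15), the carboxylesterase Ces1d (0.79) and the glutathione transferases Gstm2 (0.66) and Gsta3 (0.51) made up the other rises. Gsto1, another glutathione transferase, fell by 1.23, a call absent with any single P10 library or P3 replicate 3 left out. The list's median was 0.39 and became -0.15 on the log2(TPM + 1) scale, and 5 rose without P3 replicate 1. Srd5a2, a steroid 5-alpha reductase outside the list, rose from 10.3, 12.4 and 8.51 CPM to 50.9, 55.4 and 89.6 CPM (log2 fold change 2.65, SE 0.27).

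Genes of bone and connective tissue, which come with a dissected nasal epithelium, were higher at P10. Of 11 bone genes 8 rose and none fell (median 1.28), and 5 rose without P3 replicate 1. Mmp13, a collagenase of bone-forming tissue, was at 1.35, 3.36 and 1.78 CPM at P3 and at 54.2, 43.3 and 42.1 CPM at P10, a fitted fold change of 20.8 (log2 fold change 4.38, SE 0.49, edgeR adjusted p = 5.98e-09). Ibsp (2.20), Dmp1 (1.94), Phex (1.28), Sp7 (0.98), Alpl (0.90) and the osteocalcin genes Bglap (3.69) and Bglap2 (3.78), near copies of each other below 6 CPM, rose too.

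Of 14 connective tissue matrix genes 7 rose and 1 fell. Col1a2 was at 353, 425 and 657 CPM at P3 and at 1365, 1360 and 1340 CPM at P10 (log2 fold change 1.5, SE 0.28, edgeR adjusted p = 0.000144), and tenascin Tnc rose from 28.7, 39.7 and 49.1 CPM to 135, 149 and 148 CPM. Fbn2, a fibrillin of developing tissue, went the other way, from 104, 76.5 and 158 CPM to 31.1, 37.6 and 38.0 CPM (log2 fold change -1.67). The P3 libraries were low next to younger and older ages: the connective list summed to 7793 to 10364 CPM at P1, 2190 to 3607 CPM at P3 and 5213 to 5415 CPM at P10, and the cartilage list to 2173 to 2436, 216 to 260 and 328 to 336 CPM. Of 14 cartilage genes 2 rose (Col9a1 0.83, Col11a1 0.86) and 1 fell (Col2a1 -0.92). None of them fell without P3 replicate 3 or any single P10 library. How much bone, cartilage and connective tissue each dissection held was not tested.

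Ensheathing glia genes rose in 2 of 10 members, Fabp7 (1.31) and S100b (0.88), with a median of 0.34 that became -0.11 on the log2(TPM + 1) scale. Only 1 of them rose without P10 replicate 3 or any single P3 library. Gpr37l1, an orphan receptor known from glia, rose from 1.35, 1.26 and 1.58 CPM to 8.98, 11.1 and 6.63 CPM. Endothelial genes fell in 3 of 10 members (Cdh5 -0.84, Kdr -0.82, Esam -1.07) and Cldn5 rose (1.15), a call absent without P3 replicate 3. None of the endothelial genes fell without P10 replicate 2 or P3 replicate 1, only 1 fell without P10 replicate 1 or P3 replicate 3, and 6 fell without P3 replicate 2. None of 7 lymphocyte or 8 skeletal muscle genes tested passed, and among 11 ciliated cell genes the dynein Dnah9 fell (-0.97), a call absent without P10 replicate 2, P10 replicate 3 or P3 replicate 3.

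Genes of early growth were lower at P10. Of 11 imprinted growth genes, which control fetal and early postnatal growth, 7 fell and none rose, and all 11 had a negative log2 fold change (median -0.76). H19, an imprinted noncoding RNA, was at 224, 275 and 444 CPM at P3 and at 104, 107 and 120 CPM at P10 (log2 fold change -1.51, SE 0.27, edgeR adjusted p = 6.81e-05). Meg3 (-1.41), Ndn (-1.24), Peg3 (-0.76), Grb10 (-0.69), Igf2r (-0.55) and Plagl1 (-0.48) fell as well, and 4 of the list fell without P10 replicate 1. Igf2bp3, a fetal RNA-binding protein, was at 21.4, 20.2 and 22.5 CPM at P3 and at 2.70, 4.03 and 6.05 CPM at P10 (log2 fold change -2.31, SE 0.27, edgeR adjusted p = 1.31e-08), and Igf2bp2 fell by 0.72.

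Olfm5 (chr7:104153013-104164831), an olfactomedin-family gene, had the largest fall by the naming rule. It was at 851, 1265 and 1848 CPM at P3 and at 104, 93.9 and 86.1 CPM at P10, 14-fold higher at P3 (log2 fold change -3.80, SE 0.35, edgeR adjusted p = 1.19e-11). Every P3 library was far above every P10 library. In the remaining ages of control mice with DOX, Olfm5 was at 1555 to 1775 CPM at P1, 170 to 234 CPM at P7 and 56.4 to 67.2 CPM at P14.

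**Figure D4:**
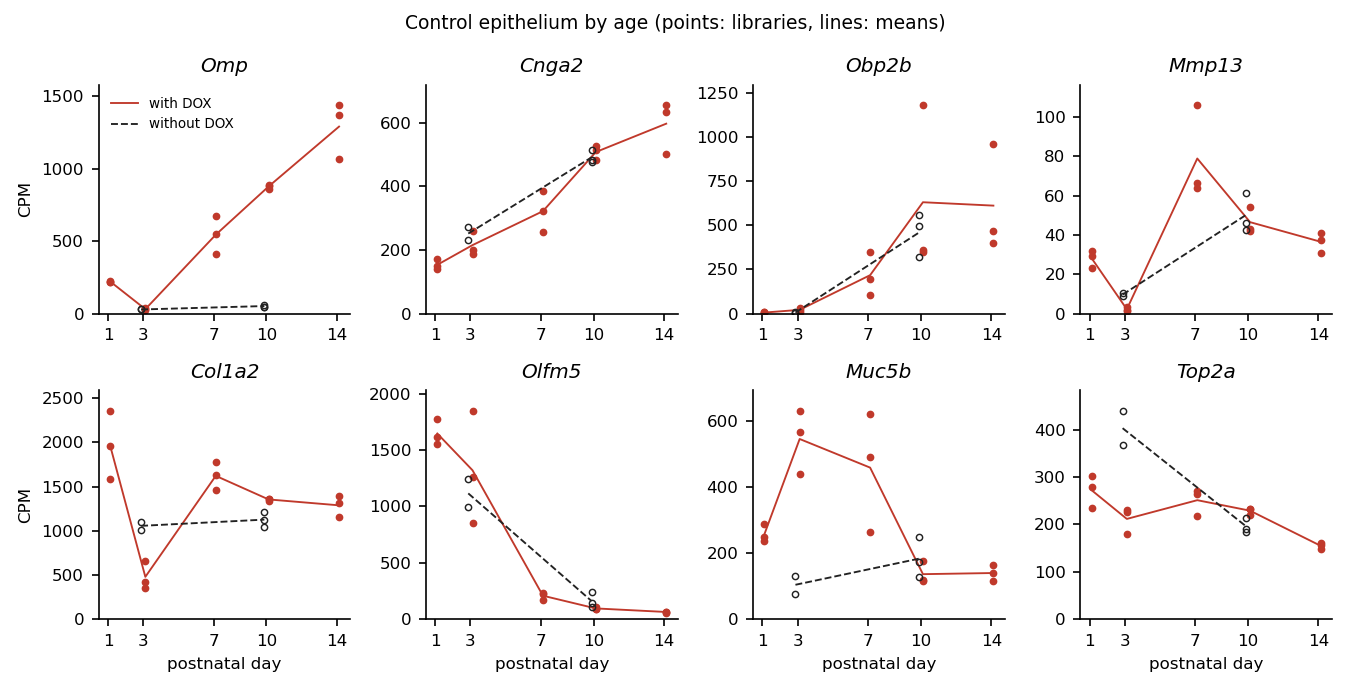
CPM of single genes against postnatal day in control mice with DOX (solid lines) and without DOX (dashed lines), with points for libraries and lines through group means. Omp with DOX dips at P3 (23.7 to 36.0 CPM) between P1 (217 to 227 CPM) and P7 (410 to 669 CPM), whereas Olfm5 is at 851 to 1848 CPM at P3 and 170 to 234 CPM at P7.

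Fzd1, the Wnt receptor that the series mutates, was at 28.4, 21.4 and 33.4 CPM at P3 and at 28.7, 26.2 and 30.8 CPM at P10 (log2 fold change 0.04, edgeR adjusted p = 0.971), and the groups overlapped. Of 15 Wnt receptor genes 2 (13.3%) fell and none rose, against 8.35% and 8.68% of all genes. Those that fell were the co-receptor Lrp5 (-1.08, SE 0.18, edgeR adjusted p = 2.03e-05) and Ror2 (-1.10). Only 1 of the receptors fell without P10 replicate 1. Lrp5 was at 54.3, 51.3 and 73.4 CPM at P3 and at 29.0, 22.8 and 32.6 CPM at P10. Of 12 tested beta-catenin target genes 3 (25%) fell, against 8.35% of all genes, and none rose. They were Axin2 (-0.61), Nkd1 (-0.75) and Znrf3 (-0.59), all feedback inhibitors of Wnt signalling. With any single P10 library, P3 replicate 1 or P3 replicate 3 left out only 2 of the list fell, and 1 rose without P3 replicate 3. With no filter on low counts none was called. Axin2 was at 34.1, 26.3 and 30.5 CPM at P3 and 24.3, 15.1 and 19.6 CPM at P10, without overlap. Of 19 axon guidance and sorting genes 3 rose (S100a5 1.35, Ncam2 0.94, Lrrc3b 0.76) and 3 fell (Sema3f -1.03, Plxna1 -0.71, Robo1 -0.36), and the median of 0.14 became -0.54 on the log2(TPM + 1) scale. Without P10 replicate 2, P3 replicate 1 or P3 replicate 3 only 1 of these genes rose and 1 fell, and 1 fell without P10 replicate 3. Outside the lists, Dcpp1, a secreted glandular protein, rose by 3.70 and Moxd2, a gene of the monooxygenase family, rose by 3.50 on the log2 scale.

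The same interval was available in control mice without DOX, 3 libraries at P10 and 2 at P3, which share no library with the DOX groups. The sample names of those 2 P3 libraries carry ctrl, while those of the P10 libraries and of both DOX groups carry wt. Whether ctrl and wt stand for the same genotype is not known from the names. The Gm10800-type family took 4.47% and 4.76% of the counts at P3 without DOX and 14.6%, 18.9% and 32.7% at P10 without DOX, and the ID series were 764 at P3 and 771 or 772 at P10. P3 replicate 1 without DOX also differed in genes that mark sex. It had Xist, an RNA of female cells, at 2.78 CPM and the Y-linked gene Ddx3y at 89.9 CPM. In the other libraries of the 4 groups Xist was at 479 to 1340 CPM and Ddx3y at most at 1.03 CPM. The part of these differences in the calls without DOX was not tested. There 1589 genes (7.18%) were called, 455 (2.05%) higher and 1134 (5.12%) lower. Of the 3771 genes called with DOX, 2786 (73.9%) had the same sign without DOX, against 55.0% of all genes. Both intervals called 545 genes, which are 14.5% of the calls with DOX and 34.3% of those without, and 521 of these had the same sign, 214 higher and 307 lower. Pearson's r of the log2 fold changes across all genes was 0.0953, given as a description since genes are not independent.

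Several of the changes above had the same direction without DOX. Olfm5 was at 1240 and 992 CPM at P3 and 238, 139 and 105 CPM at P10 without DOX (log2 fold change -2.80). Obp2b went from 5.10 and 5.70 CPM to 496, 557 and 322 CPM, Scgb1c1 from 254 and 259 CPM to 1203, 1077 and 1174 CPM, and Igf2bp3 fell by 2.21. Odorant receptor genes had a median of 0.89 without DOX, with 94 higher and none lower. Bone (1.49) and mature neuron genes (0.72) also kept a positive median. Other lists did not keep their sign. The connective tissue median was 0.79 with DOX and -0.11 without, where 1 of its genes rose and 3 fell. Immediate early genes had -1.29 with DOX and 0.03 without, and nasal gland genes -0.59 and 0.53.

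The difference between the intervals with and without DOX was called for 666 genes (3.01%), 534 (2.41%) higher and 132 (0.596%) lower in the DOX interval. Leaving out P3 replicate 1 of the mice without DOX left 40 calls, so this count rests largely on that library, and leaving out P3 replicate 1 with DOX left 164. Omp differed most plainly, by 3.99 (SE 0.54, edgeR adjusted p = 7.29e-06), since its log2 fold change without DOX was 0.89. For cell cycle genes 13 of 23 differences were called, all higher in the DOX interval. All 23 fell without DOX (median -1.22), where the list summed to 2027 and 2383 CPM at P3 and 919 to 992 CPM at P10, against 1057 to 1353 CPM and 1060 to 1097 CPM with DOX. The sums of the 2 settings were thus further apart at P3 than at P10.

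Cep83os, a noncoding RNA opposite Cep83, moved in opposite directions: with DOX it was at 6.22, 6.30 and 7.32 CPM at P3 and 23.7, 21.5 and 25.1 CPM at P10, and without DOX at 27.6 and 26.0 CPM at P3 and 7.88, 7.89 and 10.6 CPM at P10. Reads of such an antisense gene and its partner cannot be told apart where counting did not use strand. Muc5ac differed by -4.17 (SE 1.16, edgeR adjusted p = 0.0336) and Muc5b by -2.82 (SE 0.50, edgeR adjusted p = 0.000795). Muc5b was at 76.8 and 131 CPM at P3 and 173, 248 and 128 CPM at P10 without DOX, against 440 to 631 CPM at P3 with DOX. Lcn2 and Il1rn differed in the same direction, by -3.17 and -4.09.

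**Figure D5:**
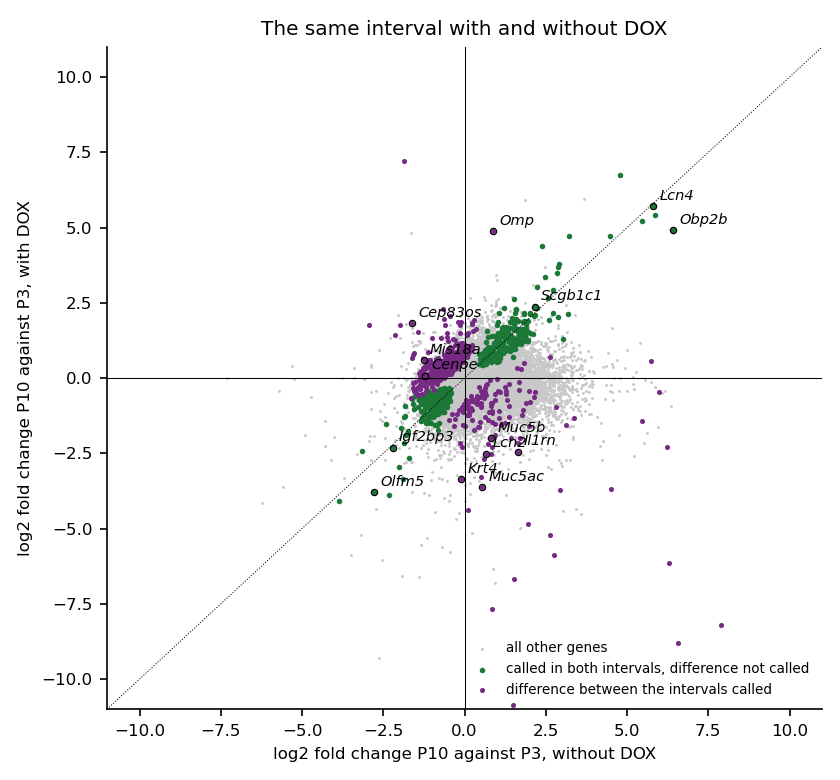
Log2 fold change of P10 over P3 with DOX (vertical axis) against the same interval without DOX (horizontal axis), 1 point per gene tested. Genes called in both intervals without a called difference (green) lie near the dotted line of equal change, and the 666 genes whose intervals differ (purple) lie off it.

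The neighbouring intervals of control mice with DOX share the P3 or the P10 libraries, so their values are only set beside the main ones. Between P1 and P3 4847 genes (21.9%) were called, 1975 (8.92%) higher and 2872 (13.0%) lower at P3, and between P10 and P14 21 (0.0948%), 15 (0.0677%) higher and 6 (0.0271%) lower at P14. Omp had a log2 fold change of -2.89 from P1 to P3, 4.88 from P3 to P10 and 0.56 from P10 to P14. Col1a2 had -2.04, 1.5 and -0.07, Mmp13 -3.65, 4.38 and -0.34, and Obp2b 1.94, 4.91 and -0.05. H19 had -2.80, -1.51 and -0.67, and Muc5ac 2.52, -3.63 and 0.13. For Omp, Col1a2 and Mmp13 the change from P1 to P3 was thus opposite in sign to that from P3 to P10, while H19 was negative in all 3 intervals. At P7, between these ages, Fzd1 was at 3.43 CPM in replicate 1 against 37.4 and 31.3 CPM in the others, which goes against the control label of that library.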

How the data were processed

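RNA was extracted with TRIzol and made into stranded total RNA libraries after ribosomal RNA removal, per the labels' protocols. The submitters' processing notes name bcl2fastq 2.18, STAR 2.6.1c, RSEM and mm10. The annotation release and whether counting used strand are not given in the sources used here. The authors deposited a whole-number count per gene and a TPM value per gene for each library. Of 54532 gene IDs, 54409 (99.8%) matched GENCODE M21, which gave coordinates.

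The counts were fitted in R 4.3.3 with edgeR 4.0.16 (filterByExpr, TMM, 1 term per group, glmQLFit and glmQLFTest), and p-values were adjusted by Benjamini-Hochberg over the 22144 genes tested, with a threshold of 0.05. All 72 libraries entered the fit, so that the 25 groups share an estimate of the spread. Assigned gene counts were 19.5% to 31.6% of all reads in the 6 libraries. Replicates differed by more than counting noise (chi-square per degree of freedom 6.32 to 10.6 at P3 and 2.08 to 5.81 at P10). On simulated counts for this comparison, with 200 of 22144 genes changed, 52% of genes with a log2 fold change of 1 were called, 86% at 2 and 96% at 3. The simulation gave all genes 1 common dispersion of 0.0256 and changed only genes above 1 CPM. It also changed far fewer genes than were called in the data, so its shares need not hold for this comparison. Alternatives used DESeq2 1.42.0, and limma 3.58.1 on log2(TPM + a pseudocount of 1 or 0.1).

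The text names the 12 largest rises and 12 largest falls among called genes with a mean log2 CPM above 2, no overlap and an ordinary gene symbol, up to 6 called members of each list by p (further members as values), the 6 called genes with the smallest p of the difference between intervals, Omp and Fzd1. Some items these rules name are not reported here. The members and the 37 gene lists were chosen with earlier results of these data known.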

Additional observations from a re-analysis of the deposited data

Results flagged for a closer look

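For the named genes below the change from P3 to P10 differed between control mice with and without DOX in the edgeR test of that difference, at an adjusted p of 0.05. The values are the log2 fold change with DOX minus that without DOX. Omp differed by 3.99 and the noncoding RNA Cep83os by 3.43. The chromosome segregation and mitosis genes Mis18a (1.85), Sgo2a (1.57), Smc2 (1.52), Cenpe (1.29) and Cdc20 (0.94) also had a positive difference, and they fell from P3 to P10 without DOX. The matrix genes Lum (1.58), Col1a2 (1.41), Postn (1.28) and Col11a1 (1.24), and Nr1d2 (1.14), mt-Nd2 (1.0), mt-Nd1 (0.96) and Msmo1 (0.92) had a positive difference too. The mucosal and defence genes Muc5ac (-4.17), Il1rn (-4.09), Krt4 (-3.25), Lcn2 (-3.17), Muc5b (-2.82) and Reg3g (-1.92) had a negative difference. So did the myeloid markers Lyz2 (-2.21) and Cd68 (-2.03), the haemoglobin gene Hba-a1 (-2.67) and the axon guidance ligand Sema3f (-0.98). The 2 settings share no library, and the group at P3 without DOX has 2 libraries, one of which the count of such genes largely rests on.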

How the results depend on the processing

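In a fit of only the groups compared, 5354 of 15529 genes tested were called. The count of 3771 called genes was 4304 with DESeq2's size factors, 4298 with DESeq2 and 4195 with a minimum mean CPM of 1, and 2050 with no filter on low counts, where more genes are tested. Leaving out single libraries gave 2071 (without P3 replicate 3) to 4016 genes, and 2508 without P10 replicate 1. For the 666 genes of the difference between intervals, the count was 414 with no filter, 328 with the Gm10800-type family left out and 416 with its share as a covariate. With the level of Y-linked genes as a covariate the count was 701. It was 2229 in a fit of only the 4 groups, 2077 without 10 libraries that stand apart (chosen after seeing the data), and 38 and 12 with limma on log2(TPM + 1) and log2(TPM + 0.1). Leaving out single libraries gave 40 to 902, and the cause was not tested. The difference in receptor share ran from 0.146 to 0.183 percentage points without single libraries. That in the Gm10800-type share, -0.72, was 0.221 over all reads and -2.55 to 0.986 without single libraries.

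Of 141 named genes, all kept their direction and call with DESeq2 and with its size factors. With limma on log2(TPM + 1) 37 lost the call and 5 changed sign: Cenpe (-0.73), Msmo1 (-0.024), Fdft1 (-0.085), mt-Nd4 (-0.061) and Nr1d2 (-0.055). With a pseudocount of 0.1 those 4 other than Cenpe did so (-0.026, -0.089, -0.061 and -0.059). Without P3 replicate 3 50 genes lost the call, more than without any other of the 6 libraries. List medians relative to all genes that changed sign on log2(TPM + 1) were lymphocyte (0.048), muscle (0.084), bulb neuron (0.088), Wnt receptor (-0.21), axon guidance (-0.18), cholesterol (-0.086) and vomeronasal (0.16). With a pseudocount of 0.1 bulb neuron (0.023) and Wnt receptor (-0.11) did so, and with no filter Wnt receptor (-0.0014). Without single libraries the medians ran from -0.076 to 0.084 for Wnt receptor, -0.022 to 0.21 for axon guidance, -0.37 to 0.21 for ciliated cells, -0.29 to 0.11 for lymphocytes, -0.20 to 0.029 for macrophages, -0.23 to 0.24 for bulb neurons and -0.50 to 0.32 for muscle.

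No paired analysis was possible because the labels give no replicate numbers. With 3 libraries a group at this depth, the simulation recovered 52% of changes of 1 on the log2 scale, so smaller changes were often not detectable.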

Other observations

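Mitochondrially encoded genes, which code for subunits of the respiratory chain, were higher at P10 on the count scale: of 7 tested 4 rose (mt-Nd2 0.78, mt-Nd1 0.69, mt-Cytb 0.67, mt-Nd4 0.57), while the list's median of 0.59 became -0.06 on the log2(TPM + 1) scale and none was then called. Summed over the list they held 6664 to 7242 CPM at P3 and 10292 to 10672 CPM at P10 with DOX, and 9628 to 10260 CPM at P3 without DOX. Of 12 circadian clock genes Dbp (0.75) and Nr1d2 (0.68) rose and Per2 (-0.69) and Npas2 (-0.93) fell. Of 12 interferon response genes Irf7 (-1.53) and Oasl2 (-0.97) fell and none rose. Without P3 replicate 3 only 1 clock gene rose and none fell, and only 1 interferon response gene fell. Of 13 cholesterol synthesis genes 2 rose, Msmo1 (0.56) and Fdft1 (0.46), and 1 fell, but none rose without P10 replicate 3 or P3 replicate 3. The list's median of 0.16 became -0.45 on the log2(TPM + 1) scale. Of the tested amino acid and mitochondrial stress genes Trib3 (0.57) rose, and Shmt2 (-0.76) and Atf3 (-1.29) fell. None of these rose and 1 fell without P3 replicate 3.

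Of 330 vomeronasal receptor genes, expressed by the separate vomeronasal organ, 153 were tested, 5 (3.27%) fell and none rose, against 8.35% of all genes that fell. The list's median was -0.71. Without P3 replicate 3 none fell and the median was -0.24, 9 fell without P3 replicate 2, and 1 or 2 fell without a single P10 library. Their summed level was 199 to 527 CPM at P3 and 167 to 249 CPM at P10, so the groups overlapped. Red blood cell genes fell in 2 of 9 tested members, Hba-a1 (-1.55) and Hbb-bt (-1.53). Without P3 replicate 3 neither was called, and the log2 fold change of Hba-a1 was -0.73 (edgeR adjusted p = 0.366). Among 9 tested microvillar cell and ionocyte genes 1 (11.1%) rose, against 8.68% of all genes. It was Hepacam2 (0.63), a call absent without P10 replicate 1 or P3 replicate 1. Of 6 tested olfactory bulb neuron genes Eomes (1.13) rose and Gad2 (-0.88) fell, and neither call held without P10 replicate 1.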
